A study of Mus musculus with 18 samples.

Results

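Nnt, Wdfy1, Kitl, Gdf3, Entpd4b, Prl2c2, Ide and Igf2bp3 are 8 of the 38887 genes quantified in mouse bone marrow-derived macrophages (BMMs). They were taken from a list of genes whose expression differed from wild-type (WT) in the same direction in GILZ knockout (GILZ KO) and in GILZ-overexpressing (GILZ TG) cells. All 8 were found by symbol and gene identifier, and all 8 passed the filter on low counts. The genes were chosen by measured values, the differences of GILZ KO and GILZ TG from WT. Those differences, and counts of the 8 genes made from them, are therefore given below as a description and not as a test. Tests are given for the response to LPS within a genotype and for GILZ KO against GILZ TG.

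GILZ, the glucocorticoid-induced leucine zipper, is encoded by Tsc22d3. Poly(A) RNA was sequenced from untreated BMMs and from BMMs exposed to 100 ng/ml LPS for 4 h, with 3 replicates in each of the 6 groups. Cells were grown from the marrow of female C57BL/6J mice with M-CSF, and the age of each mouse is not given in the labels. The study's methods give only an age range over all mice used for BMMs. According to the study's methods, mice of all genotypes carried Cre recombinase in the Lyz2 locus, which is active in myeloid cells. The methods give these Lyz2-Cre mice as WT. GILZ KO mice had in addition loxP sites around exon 6 of Tsc22d3, and GILZ TG mice had a Gilz cDNA in the ROSA26 locus behind a stop cassette that Cre removes.

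The 8 genes have no pathway in common. Nnt (nicotinamide nucleotide transhydrogenase) is an inner mitochondrial membrane enzyme that uses the proton gradient to make NADPH, and C57BL/6J mice are known for a deletion within this gene. Wdfy1 encodes a FYVE-domain protein of early endosomes that has been linked to signalling from Toll-like receptors through TRIF. Kitl is stem cell factor, the ligand of the receptor tyrosine kinase Kit. Gdf3 is a secreted ligand of the TGF-beta superfamily, and Prl2c2 (proliferin) is a secreted member of the prolactin family. Ide is the insulin-degrading enzyme, a zinc metalloprotease. Entpd4b belongs to the nucleoside diphosphatases of the Golgi and lysosome. Igf2bp3 is an RNA-binding protein of fetal and tumour cells. Which exons of Nnt the reads covered cannot be read from values per gene.

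The genes lie on 6 chromosomes of the GRCm38 assembly. Nnt (13:119335448-119408997, minus strand) and Prl2c2 (13:12996125-13005383, minus strand) share chromosome 13, and Gdf3 (6:122605403-122610087, minus strand) and Igf2bp3 (6:49085223-49214957, minus strand) share chromosome 6. Wdfy1 is at 1:79702262-79776143 (minus strand), Entpd4b at 14:69555424-69585520 (plus strand) and Ide at 19:37268743-37337852 (minus strand). Kitl (10:100015630-100100416, plus strand) is the only one on the chromosome of Lyz2, 17.2 Mb from it.

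A pair of these genes has a near-identical copy, which limits how reads of 75 nt can be assigned. Every 75-base stretch of the Entpd4b transcripts, 8281 of 8281, also occurs in Entpd4, a copy 188154 bp away on the same strand (14:69337174-69367270). The coding sequences of both genes are 1842 bases long and have 0 differences, so reads within them cannot be assigned to either copy. The first 75 coding bases stand for the whole and are printed from the GRCm38 reference, where they span an intron (14:69565837-69567389 for Entpd4b and 14:69347587-69349139 for Entpd4, plus strand).
Entpd4b: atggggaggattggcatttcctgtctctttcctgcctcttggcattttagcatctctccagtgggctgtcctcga
Entpd4: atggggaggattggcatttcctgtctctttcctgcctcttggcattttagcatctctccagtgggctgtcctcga

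For Prl2c2, 831 of 1158 such stretches (71.76%) occur in Prl2c3, Prl2c5 or Prl2c1. Its coding sequence of 675 bases is 99.56% identical to that of Prl2c3, which lies 196046 bp away (13:12790816-12800079, minus strand). The 3 differences are T14C, C200A and T319G, counted from 1 at the A of the start codon, with the base of Prl2c2 first. The stretches around them are shown because only reads across these bases tell both coding sequences apart, and capitals mark the base that differs. The first pair lies within 1 exon (13:13005297-13005326 and 13:12799983-12800012, minus strand).
Prl2c2, coding bases 1 to 30: atgctcccttcttTgattcaaccatgctcc
Prl2c3, coding bases 1 to 30: atgctcccttcttCgattcaaccatgctcc
Prl2c2, coding bases 185 to 214: tttcagaactgttcaCtgaatttgaaaaac
Prl2c3, coding bases 185 to 214: tttcagaactgttcaAtgaatttgaaaaac
Prl2c2, coding bases 304 to 333: aggctcacacactatTcagctcttctgaaa
Prl2c3, coding bases 304 to 333: aggctcacacactatGcagctcttctgaaa

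The other 6 genes share 0 such stretches with any other annotated gene.

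Libraries held between 14583055 and 38557029 reads assigned to genes. Tsc22d3 was at 16.5 ± 2.08 TPM (a relative abundance per transcript length; SD, n = 3) in untreated WT cells, 2.34 ± 0.461 in GILZ KO and 155.9 ± 3.93 in GILZ TG. After LPS it was at 5.15 ± 0.627 TPM in WT, 2.91 ± 0.392 in GILZ KO and 131.7 ± 7.64 in GILZ TG. The ratio of GILZ KO to WT was thus 0.142 without treatment and 0.565 after LPS. In untreated cells, Lyz2 was at 12839.8 ± 2276.2 TPM in WT, 33.6 ± 10.6 in GILZ KO and 33.0 ± 18.3 in GILZ TG. These levels go against WT carrying the Lyz2-Cre allele in the same way as the other genotypes. WT thus differed from both in Lyz2 as well, and a difference in GILZ, in alleles at or near Lyz2 or in strain background cannot be told apart in the comparisons with WT. The summed level of 7 macrophage markers lay between 3825 and 5021 TPM in all groups. Summed markers of stromal fibroblasts were at 100.8, 115.2 and 9.75 TPM in replicates 1, 2 and 3 of untreated GILZ TG cells. The WT libraries had 11.2 to 21.8 TPM and those of GILZ KO 4.88 to 11.4 TPM. B cell markers summed to 25.5 to 152.9 TPM in GILZ TG against 19.7 to 35.4 in WT, and markers of the neutrophil lineage to 68.3 to 515.6 TPM against 20.7 to 77.2, again with replicate 3 the lowest. Their part in the values of the 8 genes was not tested. In these bulk samples, fewer cells of a type and less RNA per cell cannot be told apart.

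Nnt, Wdfy1 and Kitl, 3 of the 8 genes, were higher in untreated GILZ KO and GILZ TG cells than in WT. Nnt was at 18.4, 18.5 and 15.7 TPM in the untreated WT replicates, at 33.8, 36.5 and 34.6 TPM in GILZ KO and at 28.4, 30.1 and 28.2 TPM in GILZ TG. The ratio of the mean TPM to WT was 1.99 in GILZ KO and 1.65 in GILZ TG. Every GILZ KO library was above every GILZ TG library, and both were above WT. After LPS, Nnt was at 10.8, 10.3 and 11.7 TPM in WT, 22.8, 20.2 and 19.7 TPM in GILZ KO and 16.8, 18.9 and 18.9 TPM in GILZ TG, in the same order and without overlap.

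Wdfy1 was at 11.3, 11.5 and 10.3 TPM in untreated WT cells, at 25.4, 25.7 and 26.3 TPM in GILZ KO and at 22.2, 28.2 and 18.7 TPM in GILZ TG. The lowest value of the modified genotypes, 18.7 TPM in GILZ TG replicate 3, was still above the highest of WT. The GILZ KO values lay within the range of GILZ TG. After LPS, WT was at 19.4, 15.4 and 15.5 TPM, GILZ KO at 33.2, 35.7 and 38.0 TPM and GILZ TG at 22.6, 31.8 and 22.9 TPM. In LPS-treated cells the order was therefore GILZ KO, GILZ TG and WT, with no overlap between any of the groups.

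Kitl was at 36.0, 28.8 and 26.4 TPM in untreated WT cells, at 72.7, 67.5 and 69.8 TPM in GILZ KO and at 73.1, 67.9 and 51.3 TPM in GILZ TG. Both modified genotypes were above WT in every library and overlapped with each other. Summed stromal markers were at 4.88 to 11.4 TPM in these GILZ KO libraries and, in GILZ TG, at 9.75 TPM in replicate 3, the one with 51.3 TPM of Kitl, and their part in the difference was not tested. After LPS, Kitl was at 13.2, 12.2 and 12.6 TPM in WT, 12.8, 17.2 and 12.2 TPM in GILZ KO and 24.2, 22.2 and 17.4 TPM in GILZ TG. GILZ KO now overlapped with WT, and GILZ TG lay above both.

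**Figure D1:**
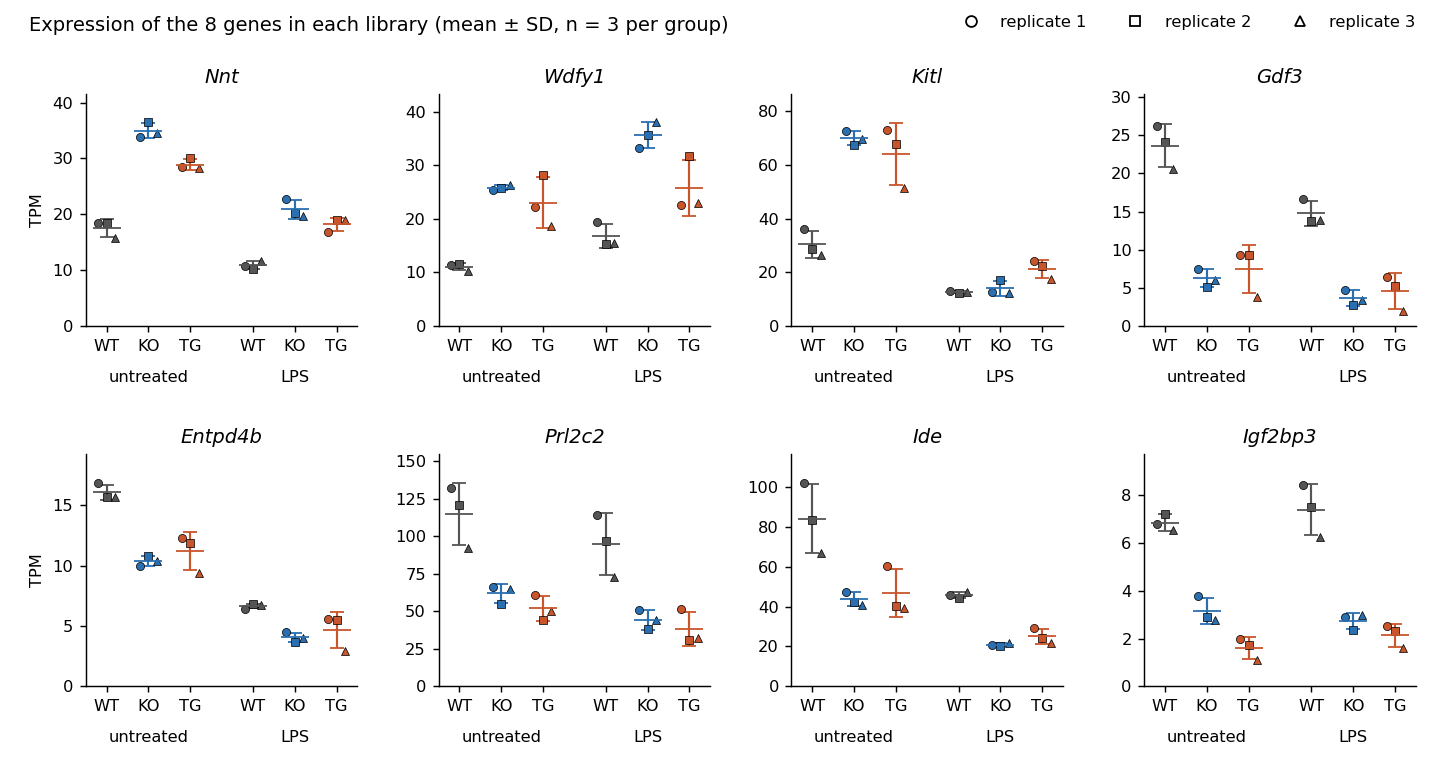
TPM of the 8 genes in each of the 18 libraries, by genotype and treatment. Points are replicates, and bars show the mean ± SD (n = 3). Nnt, Wdfy1 and Kitl lie above WT in untreated GILZ KO and GILZ TG cells and the other 5 genes below it, while Kitl after LPS is the only case where a modified genotype overlaps with WT.

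Gdf3, Prl2c2, Ide, Igf2bp3 and Entpd4b were lower than in WT in both genotypes. The secreted factor Gdf3 was at 26.2, 24.1 and 20.6 TPM in untreated WT cells, at 7.54, 5.16 and 6.07 TPM in GILZ KO and at 9.32, 9.25 and 3.85 TPM in GILZ TG. After LPS the values were 16.7, 13.8 and 13.9 TPM in WT, 4.76, 2.82 and 3.44 TPM in GILZ KO and 6.48, 5.27 and 2.0 TPM in GILZ TG. The lowest WT value was more than the highest value of either modified genotype under both treatments. Relative to WT, the mean TPM was 0.265 in GILZ KO and 0.316 in GILZ TG without treatment, and 0.248 and 0.31 after LPS. GILZ KO lay within the range of GILZ TG under both treatments.

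Prl2c2 had the highest level of the 8 genes in WT. It was at 131.8, 120.5 and 92.1 TPM in untreated WT cells, at 66.2, 54.9 and 64.6 TPM in GILZ KO and at 60.7, 44.5 and 50.4 TPM in GILZ TG. After LPS it was at 114.0, 96.6 and 72.9 TPM in WT, 51.0, 37.9 and 44.0 TPM in GILZ KO and 51.5, 31.0 and 32.5 TPM in GILZ TG. The modified genotypes overlapped with each other and stayed below the lowest WT library. Of the summed TPM of Prl2c2 and Prl2c3, Prl2c2 made up 93.6 to 98.0% in all libraries.

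Ide was at 101.8, 83.5 and 66.9 TPM in untreated WT cells, at 47.5, 42.4 and 41.0 TPM in GILZ KO and at 60.5, 40.4 and 39.3 TPM in GILZ TG. The WT libraries spread over a wide range, and the highest GILZ TG library came close to the lowest of them. After LPS the WT values lay close together, at 45.8, 44.5 and 47.1 TPM, and GILZ KO was at 20.9, 20.4 and 21.6 TPM and GILZ TG at 29.3, 24.2 and 21.5 TPM. The distance to WT was therefore clearer relative to the spread in LPS-treated cells.

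The RNA-binding protein gene Igf2bp3 was at 6.81, 7.22 and 6.54 TPM in untreated WT cells, at 3.8, 2.91 and 2.76 TPM in GILZ KO and at 2.0, 1.72 and 1.09 TPM in GILZ TG. It was the only one of the 5 lower genes for which GILZ TG lay entirely below GILZ KO. After LPS, WT was at 8.41, 7.51 and 6.26 TPM, GILZ KO at 2.91, 2.36 and 2.98 TPM and GILZ TG at 2.51, 2.3 and 1.61 TPM, and the modified genotypes overlapped. Among the 3 GILZ TG libraries, replicate 3 had the lowest value for 7 of the 8 genes without treatment and for 5 of the 8 after LPS.

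Entpd4b, the Golgi and lysosomal enzyme, differed least from WT in untreated cells. It was at 16.8, 15.7 and 15.7 TPM in untreated WT cells, at 9.94, 10.8 and 10.4 TPM in GILZ KO and at 12.3, 11.9 and 9.38 TPM in GILZ TG. After LPS it was at 6.44, 6.78 and 6.72 TPM in WT, 4.48, 3.68 and 4.01 TPM in GILZ KO and 5.59, 5.47 and 2.96 TPM in GILZ TG. Neither genotype overlapped with WT, and both overlapped with each other.

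On counts scaled by TMM, the log2 fold change of GILZ KO against WT in untreated cells ran from -1.95 (95% interval -2.54 to -1.36) for Gdf3 to 1.62 (1.27 to 1.97) for Wdfy1. For GILZ TG against WT it ran from -2.11 for Igf2bp3 to 1.31 for Wdfy1. Both comparisons use the same WT libraries and are therefore not independent of each other. The values for GILZ KO and GILZ TG stood side by side for Nnt (0.95 and 0.70), Kitl (1.08 and 1.09), Ide (-0.98 and -0.79) and Prl2c2 (-0.93 and -1.16). After LPS they were 0.93 and 0.74 for Nnt, 1.45 and 0.98 for Wdfy1, -1.18 and -0.79 for Ide and -1.10 and -1.29 for Prl2c2. Kitl was the exception, with 0.05 (-0.22 to 0.32) in GILZ KO and 0.65 (0.38 to 0.91) in GILZ TG.

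**Figure D2:**
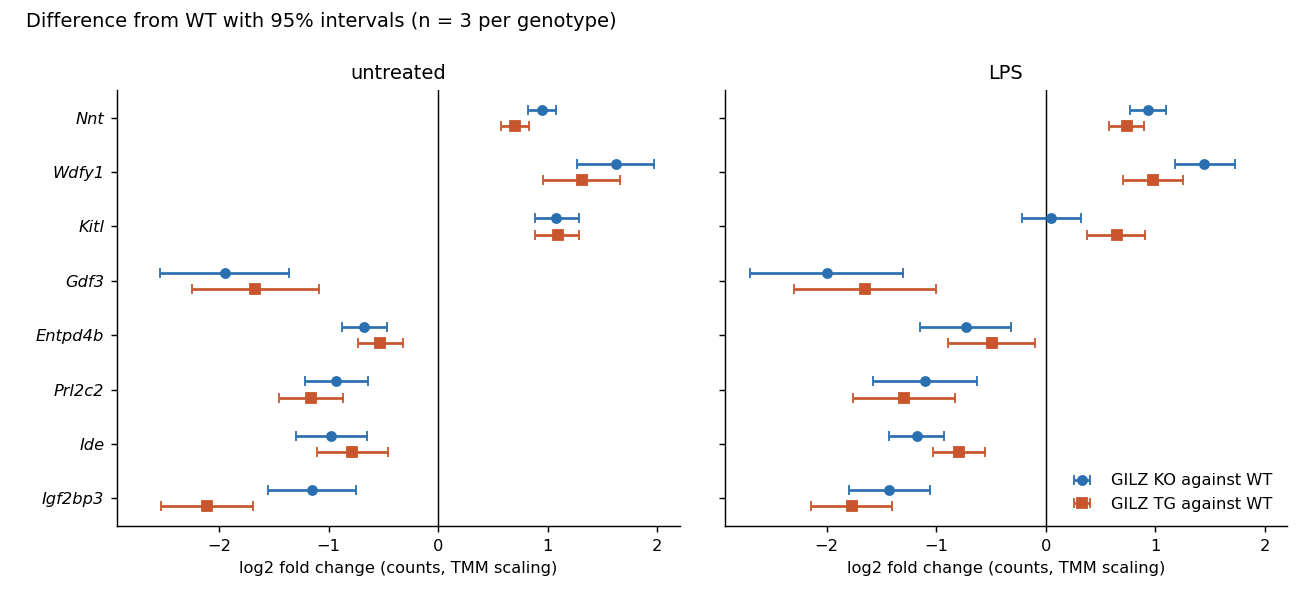
Log2 fold change of GILZ KO and GILZ TG against WT for the 8 genes in untreated and LPS-treated cells, on counts with TMM scaling. Points are the fitted values and bars their 95% intervals (n = 3 per genotype, shared WT libraries); these values chose the genes. The GILZ KO interval of Kitl includes 0 after LPS, at 0.05 (-0.22 to 0.32).

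In 7 of the 8 genes, all but Kitl, the TPM values of WT did not overlap with either genotype under either treatment, and the direction was the same throughout. The share over all genes with a value in each comparison was 0.348% (41 of 11792). With the TPM values of Entpd4b and Entpd4 summed, GILZ TG overlapped with WT after LPS and the count was 6 of the 8. Genes under an adjusted p of 0.05 in edgeR's quasi-likelihood test in all 4 comparisons with WT were also counted, as a description. They were 2 of the 8, Nnt and Wdfy1, against 0.0254% of all genes. The third such gene was Lyz2. These shares describe the choice of the genes and are no evidence about them. Because the same comparisons chose the genes, being under the threshold is no test result for Nnt or Wdfy1.

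For Wdfy1 the estimated length of the transcripts differed along with the level. The abundance-weighted transcript length was 3025, 3018 and 2726 nt in untreated WT cells, 4118, 3762 and 3876 nt in GILZ KO and 3290, 3696 and 3388 nt in GILZ TG. After LPS it was 2403, 2736 and 2570 nt in WT, 3476, 3257 and 3124 nt in GILZ KO and 3207, 3348 and 3229 nt in GILZ TG. Both modified genotypes were above WT in each library. A weighted length without overlap in the same direction in all 4 comparisons was found for 0.182% of 8231 genes (15 genes, of which 2 were longer and 13 shorter than in WT). The deposited values list 12 Wdfy1 transcripts, of which 4 are 4551 nt long, and the next longest has 914 nt. A greater weighted length thus means that a larger share of the estimated Wdfy1 molecules was assigned to full-length transcripts and a smaller share to short ones. The fold difference of GILZ KO from WT was accordingly 3.07 on counts and 2.34 on TPM in untreated cells.

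**Figure D3:**
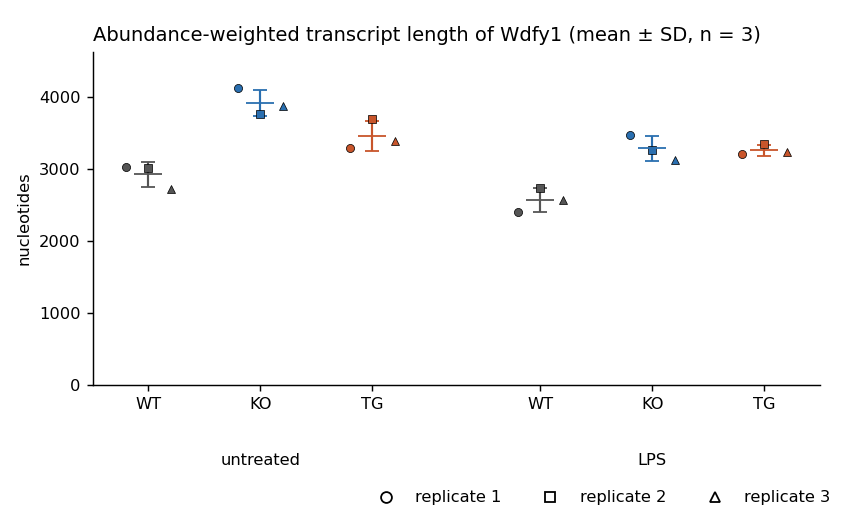
Abundance-weighted transcript length of Wdfy1 in nucleotides for each library, by genotype and treatment. Points are replicates and bars the mean ± SD (n = 3). The untreated WT libraries lie between 2726 and 3025 nt and those of GILZ KO between 3762 and 4118 nt.

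Because reads of Entpd4b and Entpd4 cannot be told apart, their TPM was also summed. The sum was 32.8 ± 2.53 TPM in untreated WT cells, 22.2 ± 2.13 in GILZ KO and 25.0 ± 4.75 in GILZ TG (SD, n = 3). After LPS it was 12.9 ± 0.677 TPM in WT, 9.36 ± 0.318 in GILZ KO and 9.58 ± 2.79 in GILZ TG. The mean of the sum was below that of WT in both genotypes. After LPS, however, the highest GILZ TG library, at 12.4 TPM, was above the lowest WT library, at 12.2 TPM, so that the sum overlapped where Entpd4b alone did not. Entpd4 itself was at 16.8 ± 1.99 TPM in untreated WT, 11.8 ± 1.73 in GILZ KO and 13.8 ± 3.18 in GILZ TG, and the adjusted p of GILZ KO against WT was 0.281 in edgeR's quasi-likelihood test and 0.0218 with DESeq2. The posterior SD of the estimated Entpd4b count, which reflects how freely reads could go to either copy, was 28.17 to 41.68% of that count, against 0.61 to 2.92% for Prl2c2.

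The region of Entpd4b held a larger difference than Entpd4b itself. Gm27177 (14:69582164-69683286, minus strand), an antisense transcript that overlaps the end of Entpd4b, was at 4.54, 3.19 and 4.53 TPM in LPS-treated WT cells, at 0 TPM in all 3 GILZ KO libraries and at 0.18, 0.96 and 0 TPM in GILZ TG. It passed the threshold in both genotypes after LPS (edgeR's quasi-likelihood test, adjusted p = 0.0138 in GILZ KO and 0.00986 in GILZ TG). The call in GILZ KO was lost with the replicate number as a block and without WT replicate 1 or 2 or any 1 of the GILZ KO libraries. Against a floor of 3 counts per library, it was at least 26.7-fold lower in GILZ KO than in WT. In untreated cells it was at 2.23, 3.1 and 5.48 TPM in WT, 0.04, 0.08 and 0.14 TPM in GILZ KO and 1.72, 1.53 and 0.16 TPM in GILZ TG. There it did not pass in the edgeR test, whereas in GILZ KO it passed with DESeq2 (adjusted p = 6.7e-08), without the filter on low counts and with all 18 libraries in the fit. The posterior SD of its count was 45.4 to 57.6 in LPS-treated WT cells, at counts of 67.8 to 150.0, so its share of reads was itself uncertain. In LPS-treated GILZ TG replicates 1 and 2, this SD was 20.5 and 30.2 and exceeded the counts of 2.0 and 10.1. Libraries were made with a directional kit, and whether the counting used the strand is not given in the sources used here.

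Gm16867 (14:69363504-69503362, minus strand), between Entpd4 and Entpd4b and named after its values were seen, was at 9.94, 9.36 and 9.54 TPM in untreated WT cells, 0, 0.52 and 0 TPM in GILZ KO and 3.41, 3.41 and 0 TPM in GILZ TG. After LPS it was at 15.4, 15.7 and 21.7 TPM in WT, 0, 0.35 and 0 TPM in GILZ KO and 8.24, 9.12 and 0 TPM in GILZ TG. Both genes had GILZ TG replicate 3 about as low as GILZ KO and GILZ TG replicates 1 and 2 between GILZ KO and WT. The posterior SDs of their counts were close, at 41.4, 46.0 and 48.6 for Gm27177 and 42.5, 47.6 and 49.8 for Gm16867 in untreated WT. Whether reads could go to either gene was not tested, so their values may not be independent of each other. Entpd4b was also lowest in GILZ TG replicate 3 within its group, at 9.38 and 2.96 TPM.

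**Figure D4:**
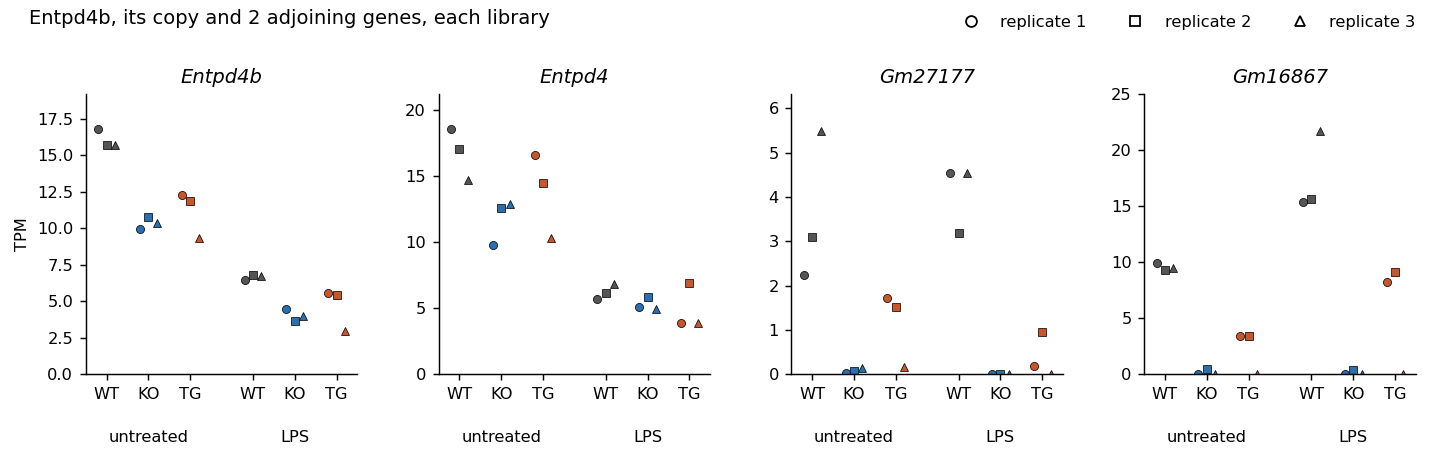
TPM of Entpd4b, its copy Entpd4 and the adjoining genes Gm27177 and Gm16867 on chromosome 14 in each library, by genotype and treatment. Each point is 1 replicate. Gm27177 and Gm16867 are at or near 0 in GILZ KO and in GILZ TG replicate 3, and Entpd4b and Entpd4 are measured in every library.

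GILZ KO was compared with GILZ TG to ask where the modified genotypes differ from each other. Their libraries are also those of the comparisons that chose the genes. The WT libraries do not enter the difference itself, but they enter the fit and with it the estimate of the spread. In untreated cells 2 of the 8 genes passed the threshold, against 4.94% of all 12621 genes tested. Igf2bp3 was higher in GILZ KO, by 0.96 on the log2 scale (SE 0.19, 95% interval 0.53 to 1.39, adjusted p = 0.0265, edgeR's quasi-likelihood test). Nnt was higher in GILZ KO by 0.25 (SE 0.06, 0.12 to 0.38, adjusted p = 0.0411 in the same edgeR test). In both genes each GILZ KO library exceeded each GILZ TG library. The call of Nnt was lost without any 1 of the GILZ KO or GILZ TG libraries or without WT replicate 2 (0.21 to 0.28, edgeR adjusted p from 0.0555 to 0.146). That of Igf2bp3 was lost without any 1 of the GILZ KO libraries, GILZ TG replicate 2 or WT replicate 2 (0.80 to 1.04, edgeR adjusted p from 0.0531 to 0.116).

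The other 6 genes did not pass in untreated cells, and the interval of the log2 difference was narrow only for some. It was -0.20 to 0.20 for Kitl, -0.36 to 0.06 for Entpd4b, -0.51 to 0.14 for Ide, -0.07 to 0.53 for Prl2c2, -0.03 to 0.64 for Wdfy1 and -0.90 to 0.34 for Gdf3. For Kitl, a difference of more than 0.20 in either direction thus lay outside the interval, whereas for Gdf3 a wide range remained.

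After LPS, Kitl was the only one of the 8 genes past the threshold (2.6% of all 12164 genes). The GILZ TG libraries exceeded those of GILZ KO (log2 difference of GILZ KO against GILZ TG -0.60, SE 0.12, 95% interval -0.86 to -0.33, edgeR adjusted p = 0.0325). The call was lost without GILZ KO replicate 1 or 3, GILZ TG replicate 1 or 2, or WT replicate 2 (-0.60 to -0.51, edgeR adjusted p from 0.0565 to 0.165). Summed stromal markers were at 80.2, 109.3 and 10.3 TPM in the LPS-treated GILZ TG replicates. GILZ TG replicate 3, with 17.4 TPM of Kitl, was near the highest GILZ KO library with 17.2 TPM. Wdfy1 was higher in GILZ KO by 0.47 (adjusted p = 0.0611, edgeR) and Ide differed by -0.38 (adjusted p = 0.0929, edgeR). Both passed with DESeq2 and without the filter on low counts.

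LPS changed 5 of the 8 genes in WT, 4 in GILZ KO and 5 in GILZ TG, where 68.6, 68.5 and 68.7% of all 13169 genes passed the threshold. The share among the 8 genes was thus no higher than in the background. Kitl fell in all genotypes, by a log2 fold change of -0.60 (SE 0.11, adjusted p = 0.00017) in WT, -1.66 (SE 0.12, 1.05e-09) in GILZ KO and -1.04 (SE 0.11, 2.3e-07) in GILZ TG, each in edgeR's quasi-likelihood test on TMM-scaled counts. On TPM, the mean after LPS was 0.417, 0.201 and 0.332 of that in untreated cells. All LPS libraries were below all untreated ones in each genotype.

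Entpd4b fell by a similar amount in each genotype, with -0.60 (edgeR adjusted p = 0.00123) in WT, -0.69 (0.000843) in GILZ KO and -0.58 (0.00209) in GILZ TG. Ide fell less, by -0.33 (edgeR adjusted p = 0.041), -0.56 (0.00233) and -0.34 (0.0381), and the WT call was lost without untreated replicate 1 or 2 or LPS replicate 2 or 3 (-0.36 to -0.27). The call in GILZ TG was lost without untreated replicate 1 (-0.14) or LPS replicate 2 or 3 (-0.28 and -0.27). Wdfy1 rose by 1.03 (edgeR adjusted p = 1.49e-05) in WT, 0.84 (7.4e-05) in GILZ KO and 0.69 (0.000446) in GILZ TG. Igf2bp3 rose by 0.74 (edgeR adjusted p = 0.000988) in WT and 1.07 (0.000119) in GILZ TG. In GILZ KO its value was 0.43 (0.0554), which passed with DESeq2 (0.46, adjusted p = 0.0328), its size factors (0.0439), the fit of the GILZ KO libraries alone (0.0206) and the replicate block (0.0118). It also passed without GILZ KO untreated replicate 1 or LPS replicate 2, GILZ TG untreated replicate 3 or LPS replicate 3, or WT LPS replicate 3.

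These directions depend on the scaling, since the composition of the libraries differed between treatments. Relative to the library totals, the median gene was at -0.70 to -0.66 on the log2 scale after LPS, and TMM sets it near 0. By library totals, Wdfy1 was at 0.35, 0.20 and 0.03 and Igf2bp3 at 0.06, -0.20 and 0.40 in WT, GILZ KO and GILZ TG, and neither passed the threshold. Nnt was at -0.05, -0.09 and -0.02 with TMM, where it did not pass, and at -0.73, -0.73 and -0.69 by library totals, where it did (edgeR adjusted p = 3.74e-08, 2.82e-08 and 4.17e-08). Its share of the reads fell about as much as that of the median gene. Gdf3 was at -0.04, -0.11 and -0.03 with TMM and at -0.72, -0.75 and -0.69 by library totals, where it passed in WT (edgeR adjusted p = 0.0331). Prl2c2 was at 0.36, 0.16 and 0.21 with TMM without passing, and at -0.33, -0.48 and -0.46 by library totals. Kitl, Entpd4b and Ide were lower after LPS under both scalings.

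**Figure D5:**
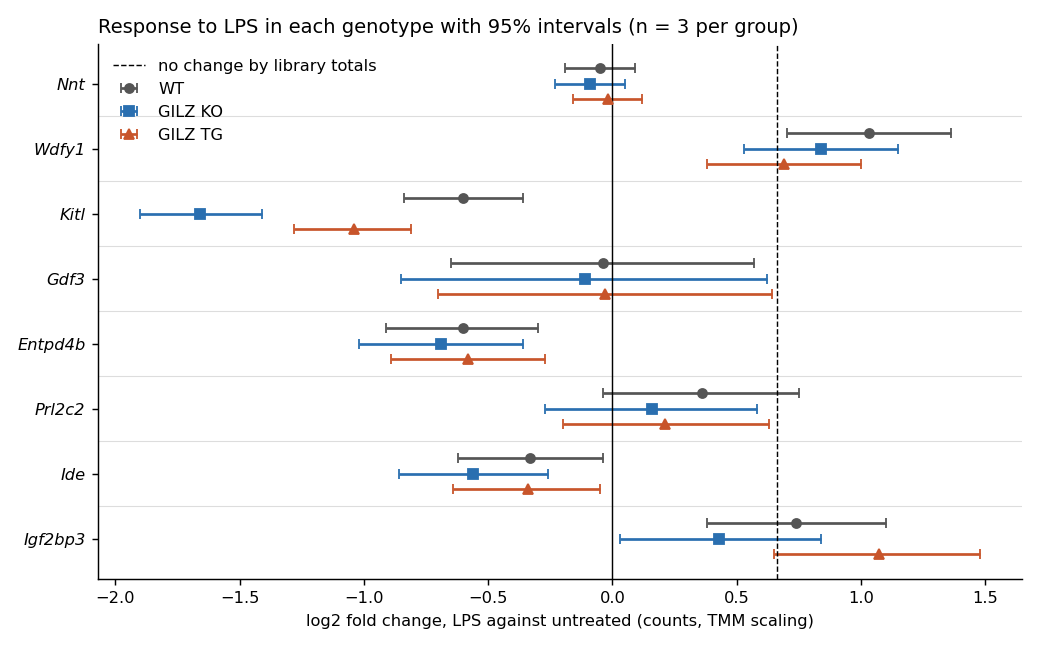
Log2 fold change of LPS-treated against untreated cells in WT, GILZ KO and GILZ TG for the 8 genes, on counts with TMM scaling, with 95% intervals (n = 3 per group). The solid line marks no change with TMM and the dashed line no change by library totals. Kitl in GILZ KO lies furthest to the left, at -1.66, with Kitl in GILZ TG next at -1.04.

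The response of Kitl to LPS differed between the modified genotypes by -0.61 (95% interval -0.95 to -0.28), with an adjusted p of 0.149 in edgeR's quasi-likelihood test. For this difference 0 of the 8 genes and 0.121% of all genes passed the threshold, and 1306 genes had an unadjusted p under 0.05. DESeq2 (adjusted p = 0.0364) and edgeR with the replicate number as a block (adjusted p = 0.0239) called Kitl alone among the 8. Against WT, where the selection used the levels, the response of Kitl differed by -1.06 (-1.40 to -0.72) in GILZ KO and by -0.45 (-0.78 to -0.11) in GILZ TG. For the other 7 genes the difference between GILZ KO and GILZ TG ran from -0.64 (-1.22 to -0.06) for Igf2bp3 to 0.14 (-0.29 to 0.58) for Wdfy1.

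Genes within 1 Mb of the 8 genes or of Lyz2 were examined to describe the surroundings. Of 301 such genes, 122 could be tested in untreated and 115 in LPS-treated cells. They include the copies Entpd4 and Prl2c3, whose values depend on how reads were split with Entpd4b and Prl2c2. Gm27177 was the only one past the threshold, in both comparisons after LPS. None passed in untreated cells by edgeR, and DESeq2 called 3 in GILZ KO and 5 in GILZ TG. At an unadjusted p under 0.05 were 11 of 122 (9.02%, against 9.6% of all genes) in untreated GILZ KO and 20 of 122 (16.4%, against 14.1%) in untreated GILZ TG. After LPS they were 23 of 115 (20%, against 9.63%) in GILZ KO and 30 of 115 (26.1%, against 15.2%) in GILZ TG, and the distance from the share of all genes was not tested. They were unevenly spread. In LPS-treated GILZ KO, 8 of 21 genes tested near Entpd4b were among them and 3 of 12 near Lyz2. Near Wdfy1 and Kitl there were 0, and the rest lay near the other genes. In LPS-treated GILZ TG, 9 of 21 near Entpd4b and 1 of 12 near Lyz2 were among them, with the rest spread over all the other genes. The adjusted threshold was passed over all genes by 0.0951% for GILZ KO and 0.642% for GILZ TG in untreated cells and 0.0822% and 0.46% after LPS. The median size of the log2 difference among the neighbours was 0.10 and 0.11 in untreated GILZ KO and GILZ TG and 0.15 in both after LPS, beside 0.09, 0.09, 0.10 and 0.12 over all genes.

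Of 89 genes related to the 8 by family or pathway, 86 were found, and 69 could be tested in untreated and 68 in LPS-treated cells. Entpd4 and Prl2c3 are among them. Their reads cannot, or can only in part, be told from those of Entpd4b and Prl2c2, which these comparisons with WT chose. The counts are therefore not fully independent of that choice. In untreated GILZ KO, 0 passed by edgeR and 1 by DESeq2 (Entpd4), with 9 (13%) at an unadjusted p under 0.05 against 9.6% of all genes. In untreated GILZ TG, 1 passed (1.45%, against 0.642% of all genes), with 11 (15.9%, against 14.1%) at an unadjusted p under 0.05. That gene was Arid3a, a transcription factor listed with the fetal programme of Igf2bp3, at 14.0, 11.2 and 10.9 TPM in WT and 9.45, 9.57 and 10.4 TPM in GILZ TG (log2 difference -0.31, edgeR adjusted p = 0.0328). Its call was lost with the replicate block and with all 18 libraries in the fit. It was also lost without WT replicate 1 or 2, any 1 of the GILZ KO libraries or GILZ TG replicate 1 or 2. After LPS, 1 passed in GILZ KO (1.47%, against 0.0822%), with 12 (17.6%, against 9.63%) at an unadjusted p under 0.05. It was Hmga2, a chromatin protein of the same list, at 87.8, 72.8 and 74.1 TPM in WT and 50.4, 48.1 and 47.1 TPM in GILZ KO (-0.69, SE 0.09, edgeR adjusted p = 0.0159). The call was lost without WT replicate 1 or 2 or any 1 of the GILZ KO libraries. GILZ TG was at 65.6, 55.8 and 59.8 TPM, also below WT. In LPS-treated GILZ TG, 0 passed by edgeR and 3 by DESeq2, with 13 (19.1%, against 15.2%) at an unadjusted p under 0.05. The paralogs Wdfy2, Wdfy3 and Wdfy4 of Wdfy1, Nrd1 and Pitrm1 of Ide and Igf2bp2 of Igf2bp3 did not pass in any comparison with WT. Kit, the receptor of Kitl, was at 0.02 to 0.39 TPM in all libraries.

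For the LPS response, the related genes passed the threshold about as often as all genes. In WT 50 of 71 did (70.4%, against 68.6% of all genes), and in GILZ KO and GILZ TG 49 each (69%, against 68.5 and 68.7%). On TMM-scaled counts 29 rose and 21 fell in WT, 27 rose and 22 fell in GILZ KO, and 30 rose and 19 fell in GILZ TG. Of 11 genes of TRIF signalling, listed for Wdfy1, 8 (72.7%) rose in each genotype, where 33.5% of all genes rose in WT, 33.2% in GILZ KO and 33.6% in GILZ TG, and no test was made of the group. Among them, the receptor Tlr3 rose by 4.84 in WT, 4.49 in GILZ KO and 4.66 in GILZ TG (edgeR adjusted p = 4.62e-15, 1.36e-14 and 7.71e-15). Igf2bp2, the relative of Igf2bp3 with the higher level, rose from 70.1, 58.3 and 42.1 TPM to 219.5, 180.9 and 171.0 TPM in WT (2.42, SE 0.14, edgeR adjusted p = 9.68e-11). Of 21 genes that supply or use NADPH in mitochondria or the cytosol, listed for Nnt, 6 rose and 6 fell in WT. Over all genes in WT, 33.5% rose and 35.1% fell.

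Between untreated GILZ KO and GILZ TG, 3 of 69 related genes were higher and 1 was lower in GILZ KO (5.8% in all, against 4.94% of all genes). Arid3a, Wdfy4 and Me1, the cytosolic malic enzyme, were the higher ones (Me1 0.50, edgeR adjusted p = 0.0402). Csf1, the gene of the macrophage growth factor M-CSF, was lower (-0.95, edgeR adjusted p = 0.0497). It was at 5.76, 4.44 and 4.92 TPM in GILZ KO and in GILZ TG at 10.3 TPM or more in replicates 1 and 2 and at 4.76 TPM in replicate 3, which overlapped with GILZ KO. Replicates 1 and 2 are those with the higher stromal, B cell and neutrophil markers, whose part in the difference was not tested. After LPS, 5 of 68 were higher in GILZ KO and 0 lower (7.35%, against 2.6% of all genes), with Me1 again among them (0.60, SE 0.13, edgeR adjusted p = 0.0377).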

How the data were processed

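Expression was measured by RNA-seq in 18 libraries, 3 replicates of each of 6 groups, which were taken from the labels. Per the submitters' processing notes, reads were checked with FastQC 0.11.2 and mapped to GRCm38 (mm10). The methods name the grape-nf pipeline, and the annotation release is not given in the sources used here. For each library the authors deposited an expected count per gene, an estimated number of reads without normalization, together with its posterior SD and the abundance-weighted transcript length. The deposited TPM (transcripts per 1000000) values are scaled by transcript length and total. The authors' DESeq2 1.40.2 comparison tables hold fold changes and p-values. They were used only to look up gene symbols.

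Expected counts were rounded, filtered with filterByExpr, scaled by TMM and tested with edgeR 4.0.16 (quasi-likelihood) in R 4.3.3 with limma 3.58.1. Genotype contrasts were fitted on the 9 libraries of each treatment, and the LPS response on all 18. P-values were adjusted over all genes by Benjamini-Hochberg with a threshold of 0.05. With 3 against 3 replicates, an exact permutation test of a single value cannot go below 0.1 (two-sided). Depth (14583055 to 38557029 reads per library) sets the precision of low counts. DESeq2 1.42.0, other size factors, no filter, other libraries in the fit, a replicate block and leaving out each library were the alternatives. Scaling by library totals and the summing of near-identical copies were added after the data had been seen. The study describes the replicates as independent preparations from 3 mice per group. Scripts were tested on simulated data. Sequences were read from the GRCm38 reference with GENCODE M21 annotation. Python 3.11.15 and matplotlib 3.10.9 were used for tables and figures.

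The 8 genes and the lists of related genes were chosen with earlier results of these data known. Named in the text are the 8 genes, Tsc22d3, Lyz2, their paralogs and neighbours within 1 Mb past the threshold. Also named are, for each of the 8, the 3 genes most like it. Single genes of the related lists (Kit, Arid3a, Hmga2, Me1, Csf1, Tlr3, Igf2bp2) and Gm16867 and Amd2 were named outside this rule, after their values were seen. Likeness is Pearson's r of log2(TPM + 1) over 18 libraries, among 11683 genes with a mean of at least 1 TPM.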

Additional observations from a re-analysis of the deposited data

How the results depend on the processing

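With 3 replicates per group, single libraries decided several calls. Of 1020 values of the 8 genes in tested comparisons under the alternatives, 956 kept their side of the threshold. Some of these, with no call in either fit, changed sign. A call was lost by 34 values and gained by 28, and 2 others turned and gained a call. The 2 were Prl2c2 after LPS by library totals, at -0.48 (edgeR adjusted p = 0.0353) in GILZ KO and -0.46 (0.0393) in GILZ TG, where that scaling lowers all genes by 0.637 and 0.671. Of 488 values against WT, 482 moved by less than 1 SD. One of the other 6 was Entpd4b with its copy added, at -0.58 in LPS-treated GILZ KO. The adjusted p of the Nnt difference between untreated GILZ KO and GILZ TG ran from 0.011 to 0.146 over the alternatives, that of Igf2bp3 from 0.000286 to 0.116 and that of Kitl after LPS from 0.000589 to 0.165.

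For GILZ KO against GILZ TG, 1 of the 8 genes passed in untreated cells by library totals, and 3 (Ide, Kitl and Wdfy1) passed after LPS with DESeq2 and 3 without the filter. Leaving out single libraries gave 0 to 3 without treatment and 0 to 3 after LPS, in each case 3 without GILZ TG replicate 3. For the LPS response it gave 4 to 6 in WT, 4 to 5 in GILZ KO and 4 to 5 in GILZ TG, and 0 to 0 for its difference between GILZ KO and GILZ TG. By library totals 5 genes passed in each genotype, of which 3 (Entpd4b, Ide and Kitl) were shared with TMM. The call of Ide in the LPS response of WT was lost with DESeq2 (adjusted p = 0.0509).

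Among neighbours, GILZ KO against WT gave 3 calls with DESeq2, 2 without the filter and 1 with all libraries in the fit in untreated cells, and 3, 3 and 2 after LPS. GILZ TG against WT gave 5, 1 and 1 without treatment and 3, 6 and 4 after LPS. Leaving out single libraries gave 0 to 3, 0 to 2, 0 to 12 and 1 to 14 in these 4 comparisons, the highest always without GILZ TG replicate 3. Among related genes, DESeq2 called 1 in untreated GILZ KO, 2 in untreated GILZ TG and 3 in LPS-treated GILZ TG. Without the filter it was 2 in untreated and 3 in LPS-treated GILZ TG, and with all libraries in the fit 0 and 2. Leaving out single libraries gave 0 to 1 in GILZ KO under both treatments, 0 to 4 in untreated and 0 to 7 in LPS-treated GILZ TG, the highest again without GILZ TG replicate 3. The cause was not tested.

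Replicate numbers were not treated as pairs. Their deviations from the group means correlated above 0.1 in 2 of 18 pairs of different genotypes and in 4 of 9 pairs of different treatments of 1 genotype (-0.033 to 0.605), among them all 3 pairs of GILZ TG (0.266, 0.397 and 0.605). With the replicate number as a block, Kitl passed in the difference of the LPS response between GILZ KO and GILZ TG (1 gene, -0.61, edgeR adjusted p = 0.0239). The block also gave 0 neighbours in LPS-treated GILZ KO and 0 related genes in untreated GILZ TG, and it added Prl2c2 in WT (0.35, edgeR adjusted p = 0.00106) and Igf2bp3 in GILZ KO (0.43, 0.0118) to the LPS response. It changed no other call of the 8 genes.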

Other observations

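For each of the 8 genes, the genes most like it over the 18 libraries are given as a description. The points share genotype, treatment and library, so no test is given. Nnt was most like Efcab7 (Pearson's r = 0.969), followed by Copz2 (0.884) and Ndufa1 (0.874). Kitl was most like Ust (0.956), Sft2d2 (0.953) and Glud1 (0.951). TPM is scaled to the library total, so the shift of the median gene after LPS is part of all these values. Glud1, for example, hardly differed from WT in untreated cells (log2 difference 0.01 in GILZ KO and -0.01 in GILZ TG). For Wdfy1 the values were lower, with Gm15899 at 0.852, Ikbkb at 0.848 and Nfe2l1 at 0.794.

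Several of the genes lower than in WT were most like each other, which follows in part from their choice by a shared difference from WT. Gdf3 was most like Prl2c2 (0.902), Ide (0.874) and Gm27177 (0.872), and Prl2c2 was most like Gdf3, Igf2bp3 (0.859) and Ide (0.845). Ide was most like Entpd4b (0.908), Htr2b (0.885) and Igf1 (0.876). Entpd4b was most like Igf1 (0.957), Cenpv (0.957) and Nptx1 (0.953), all with the LPS treatment as part of the pattern. Igf2bp3 was most like Lyz2 (0.894), Prl2c2 (0.859) and Ppic (0.827).

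Efcab7, which encodes a ciliary EF-hand protein, was at 3.52 TPM in untreated WT cells, 9.35 in GILZ KO and 9.66 in GILZ TG (means, n = 3). After LPS the means were 1.35, 4.53 and 3.81 TPM. As for Nnt, no library of either genotype overlapped with WT under either treatment. Among the genes lower than in WT with no overlap in all 4 comparisons, and named after their values were seen, Amd2 was at a mean of 2.56 TPM in untreated WT cells, 0.54 in GILZ KO and 0.543 in GILZ TG.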
